A study of Mus musculus with 12 samples.

Results

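In the chromatin of fibro-adipogenic progenitors (FAPs), 514 of 8708 merged H3K27ac regions carried a peak in the young vehicle and the old TSA libraries and none in the young TSA and old vehicle libraries. They were chosen by that pattern alone: the peaks of the 4 H3K27ac lists on chromosomes 1 and 2 and on chromosome 3 up to position 122275556 were merged where they overlapped or touched, and the lists in which each merged region had a peak were noted. The pattern is therefore not itself a result, and no test was made of it. It took 5.90% of all merged regions, where 27.7% had a peak in young vehicle and none in young TSA and 26.4% one in old TSA and none in old vehicle. There were 199 members on chromosome 1, 208 on chromosome 2 and 107 on chromosome 3.

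FAPs are mesenchymal cells of skeletal muscle that support regeneration and can become fat cells or scar-forming fibroblasts. They were taken from C57Bl6 mice with the mdx mutation, which removes dystrophin and serves as a model of Duchenne muscular dystrophy. All mice carried that mutation, and no healthy mice were among the samples used here. Young mice were 1.5 months old and old mice 12 months old, and each age received intraperitoneal injections every day for 15 days, either of trichostatin A (TSA) at 0.6 mg/kg/day in saline or of saline alone as vehicle. Each of the 4 groups had 1 library per histone mark, from cells sorted by flow cytometry. The number of mice behind a library and the sorting gate are not given in the sources used here. With 1 library per group, the values below describe these libraries and no difference between groups could be tested.

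Acetylation of histone H3 at lysine 27 marks active promoters and, away from promoters, active enhancers, the stretches of DNA that raise transcription of a gene at a distance. It is written by the acetyltransferases p300 and CBP and removed by histone deacetylases, the enzymes that TSA inhibits. Acetylation of H3 at lysines 9 and 14 (H3K9/14ac) is typically concentrated around active transcription start sites. In FAPs, enhancers of collagen and other matrix genes are of interest because these cells are the main source of scar tissue in dystrophic muscle.

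The lists differed in length, which bears on every count of a pattern. Over the stretch the young vehicle and old TSA lists held 7891 and 7571 H3K27ac peaks, and the young TSA and old vehicle lists held 5945 and 5727. The members thus had peaks in the longer lists and lacked them in the shorter ones. The opposite pattern, a peak in young TSA and old vehicle alone, was found at 5 regions. When each list was reduced to its 5727 widest peaks, 192 regions had the members' pattern (2.77% of 6928) and 96 the opposite one (1.39%). When the peaks with most tags were kept instead, the counts were 164 (2.43% of 6745) and 48 (0.712%). A region missing from a list is also not known to be without acetylation. The deposited peak numbers run along the genome and skip values, so that the young TSA and old vehicle lists held 54.5% and 54.2% of the numbers they span. The young vehicle and old TSA lists skipped numbers as well and held 53.9% and 57.8%. At 30 members no skipped number lay between the listed neighbours in young TSA, at 44 members none did in old vehicle, and at 3 members none did in either. Those 3 were a region inside Aven (46 tags in young vehicle, 61 in old TSA), a region 28493 bp from Creb3l1 (51 and 41 tags) and a region 65013 bp from Zcchc2 (37 and 41 tags). The part that unlisted peaks and list length have in the pattern was not tested.

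Most members lay away from promoters. A RefSeq promoter window, meaning 250 bp before to 50 bp after an annotated start, was touched by 22 of the 514 (4.28%, against 19.2% of all merged regions). The sequences of 4 such windows follow, each lying for at least 200 of its 300 bases inside a member. Dab2ip, Hmcn1 and Trim69 were taken because no further H3K27ac peak lay within 1000 bp of the gene's ends. The nearest young TSA or old vehicle peak was still only 652 bp from the Hmcn1 member and 1965 bp from the Trim69 member. At Dab2ip it was 22705 bp away. Kcnab1 was taken because that distance was 203073 bp. The sequences are those of RefSeq for GRCm38.p6 on the strand of the gene, 5′ to 3′, and capitals mark matches to the motifs named after them.
Dab2ip, chr2:35558208-35558507, plus strand: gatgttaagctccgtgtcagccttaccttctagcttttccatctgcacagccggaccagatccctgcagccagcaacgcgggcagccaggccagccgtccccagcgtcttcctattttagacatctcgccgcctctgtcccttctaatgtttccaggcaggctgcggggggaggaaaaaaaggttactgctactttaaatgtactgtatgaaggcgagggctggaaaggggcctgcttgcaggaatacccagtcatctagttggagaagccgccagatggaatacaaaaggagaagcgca
Hmcn1, chr1:150993386-150993685, minus strand: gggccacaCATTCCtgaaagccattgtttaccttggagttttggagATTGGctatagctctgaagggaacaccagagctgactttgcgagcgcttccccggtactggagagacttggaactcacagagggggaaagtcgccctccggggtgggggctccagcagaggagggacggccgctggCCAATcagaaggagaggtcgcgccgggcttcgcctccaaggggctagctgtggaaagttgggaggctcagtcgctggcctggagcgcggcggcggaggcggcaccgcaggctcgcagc
Trim69, chr2:122161306-122161605, plus strand: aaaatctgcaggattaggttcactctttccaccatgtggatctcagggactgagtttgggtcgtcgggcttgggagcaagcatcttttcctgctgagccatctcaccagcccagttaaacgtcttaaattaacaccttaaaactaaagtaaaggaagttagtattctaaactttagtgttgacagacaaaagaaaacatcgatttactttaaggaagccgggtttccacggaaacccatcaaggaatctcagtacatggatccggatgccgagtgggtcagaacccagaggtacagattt
Kcnab1, chr3:65187853-65188152, plus strand: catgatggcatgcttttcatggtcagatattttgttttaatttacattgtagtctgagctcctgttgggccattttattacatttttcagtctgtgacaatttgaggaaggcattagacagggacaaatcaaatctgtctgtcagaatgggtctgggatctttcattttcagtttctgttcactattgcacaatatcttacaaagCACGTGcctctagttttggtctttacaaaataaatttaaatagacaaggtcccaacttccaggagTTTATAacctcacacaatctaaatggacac
Dab2ip has 3 further RefSeq promoter windows inside the gene, away from the annotated ends, and 2 of its 4 windows had an H3K27ac peak of young TSA or old vehicle. Dab2ip encodes a GTPase-activating protein for Ras, Hmcn1 the matrix protein hemicentin-1, Trim69 a member of the tripartite-motif family and Kcnab1 an auxiliary subunit of potassium channels. In young vehicle and old TSA the members over these windows had 90 and 60 tags at Dab2ip, 58 and 89 at Hmcn1, 92 and 71 at Trim69, and 82 and 79 at Kcnab1, where a tag is a sequenced read as the authors' program counted it. The Hmcn1 window held 2 CCAAT boxes, starting at bases 47 and 183, and 1 GGAATG at base 9. The Kcnab1 window held CACGTG at base 206 and TATAAA at base 271, the latter after the annotated start. Both strands were searched. The CCAAT at base 47, the GGAATG and the TATAAA lie on the opposite strand and are printed as their reverse complements. Neither of the other windows held any of the letters searched.

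Over all 23 promoter windows of protein-coding genes that a member touched, the motif counts were read against the 3883 windows of such genes in the stretch, both strands being searched. The GC box GGGCGG occurred in 16 windows (69.6%, against 45.2% of all), CCAAT in 7 (30.4% against 36.7%), and CACGTG in 4 (17.4% against 7.62%). The TEAD-family motif GGAATG was found in 4 (17.4% against 13.4%), the AP-1 motif TGANTCA in 1 (4.35% against 7.75%) and TATAAA in 1 (4.35% against 12.9%). The median GC content was 64.3%, against 56.3% over all windows. The 3883 windows include those without any H3K27ac peak, and windows under other H3K27ac regions were not counted apart. The shares therefore do not set the members apart from other acetylated promoters. Among the 23, 2 were overlapping windows of Slc23a2 under 1 member. These counts describe the letters of the windows and show no binding.

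One member inside Dnm3 held a microRNA gene. Mir214 lies within Dnm3, the gene for dynamin-3, and its hairpin at chr1:162223368-162223477 fell inside the member chr1:162223215-162223816, which had 79 tags in young vehicle and 91 in old TSA. The mature products of RefSeq are shown because the pattern of this region is that of the hairpin itself, with the seed, bases 2 to 8, in capitals.
mmu-miR-214-5p: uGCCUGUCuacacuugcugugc
mmu-miR-214-3p: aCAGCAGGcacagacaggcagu
The seeds differ, so the arms belong to no shared seed family. A second member followed at chr1:162225656-162226170, with 38 tags in young vehicle and 44 in old TSA. Elsewhere in Dnm3 lay 3 others, with 79 and 52, 87 and 48, and 40 and 87 tags.

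The members were narrow and low. Their median width was 614.5 bp (192 to 1859 bp), against 781 bp for all regions and 1491.5 bp for the 3706 regions found in all 4 lists. Regions found in young vehicle alone and in old TSA alone were narrower, with medians of 357 and 334 bp. Members had a median of 67 tags in young vehicle (23 to 226) and 61 in old TSA (23 to 244). Within its own list the median member peak stood at percentile 27.2 by tags in young vehicle and 23.7 in old TSA, and 12.2% and 7.09% of member peaks stood above the median of their list. Per length, the members had a median of 138.5 tags per kb in young vehicle and 147.4 in old TSA, while all peaks of these lists had 159.2 and 172.0. In 477 members each list contributed 1 peak, and the young vehicle peak covered more bp than the old TSA peak in 312 members and fewer in 201.

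**Figure D1:**
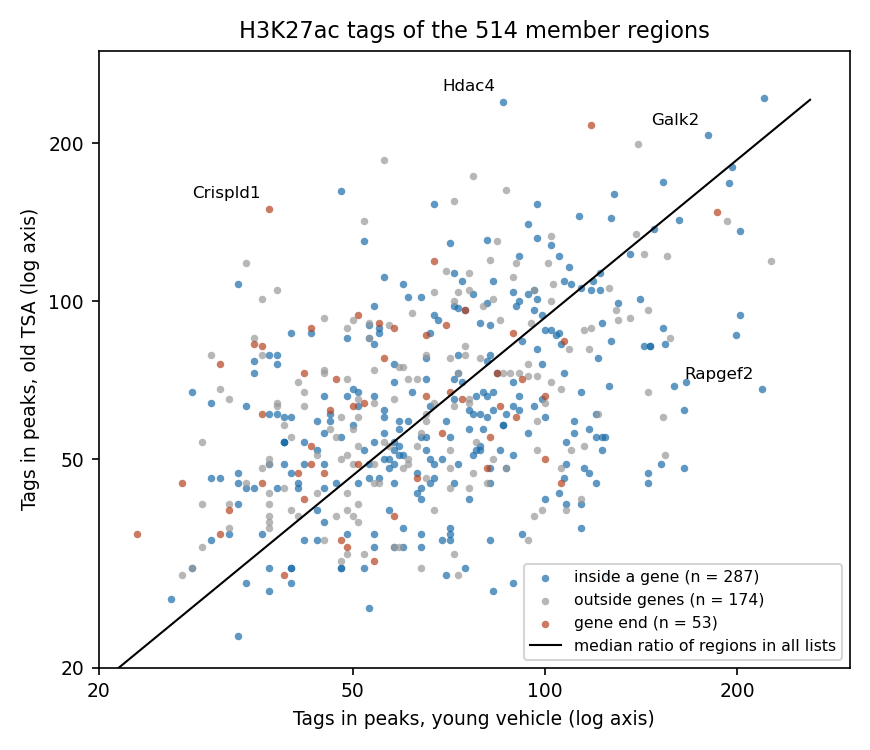
H3K27ac tags of each of the 514 members in the young vehicle library (horizontal log axis) and the old TSA library (vertical log axis), with 1 point per region coloured by place; the line is the median ratio of the regions found in all 4 lists. Points spread to both sides of the line, with 260 above and 254 below, and Hdac4 and Crispld1 far above it and Rapgef2 far below.

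Between the libraries that carried them, the members did not lean to one side. The log2 ratio of old TSA over young vehicle tags, set to 0 at the median of the regions found in all 4 lists, had a median of 0.02 over the members and ran from -1.95 to 2.12. It was above 0 at 260 members and below at 254. It lay more than 2 counting errors above 0 at 115 members (22.4%) and as far below at 109 (21.2%), shares that were 28.2% and 27.7% among the deeper regions found in all 4 lists. The standard deviation was 0.68 over the members and 0.50 over those regions. Counting error alone is covered by these figures, since no second library exists for any group. Each library's tags were summed over its own peaks, so the ratios also hold differences in peak width. The lists give no tags of young TSA or old vehicle at the members, so no ratio to those libraries could be formed.

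Genes of the extracellular matrix held the highest counts of members per gene, at Fbn1 and Col3a1, although these counts fell to 3 and 1 with lists of equal length. Of 3789 protein-coding genes of the stretch, 316 (8.34%) had a member in the gene or within 10000 bp of it, and 75 had at least 2. Of 24 matrix genes of the stretch, 10 had one, and 27 of the 234 regions around these 24 genes were members (11.5%, against 5.90% of all regions). Fbn1 had 8 of its 45 regions as members and Col3a1 had 7 of its 31. This pair held more of the 27 members than all the other listed matrix genes together. All 24 genes were listed with the genes of these loci already known from the same data, so the count is no independent evidence.

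Fbn1, the gene of fibrillin-1, the main protein of elastic microfibrils, had 45 H3K27ac regions over its 205892 bp and flanks. Its 8 members lay on chromosome 2 between 125299492 and 125511323, 6 of them within the gene without touching its ends. The widest, chr2:125318022-125319526, had 202 tags in young vehicle and 94 in old TSA, and chr2:125416621-125417446 had 99 and 76. At chr2:125324802-125325577 the counts were 92 and 36, and the narrowest, 244 bp wide close to the start of the gene, had 33 and 23. Summed over the 8 regions, young vehicle had 725 tags and old TSA 428, and young vehicle had the higher count at each of them. Each count is over the library's own peaks, whose widths differed. In kb from the start of the gene, the 92 tags lay at 180.908 to 181.683 and the 36 at 181.101 to 181.356. The 33 tags lay at 2.217 to 2.461 and the 23 at 2.262 to 2.408. A higher count thus need not mean more tags per length. A further 8 regions at Fbn1 had peaks in every list, 10 had one in young vehicle alone and 5 in old TSA alone. The member at chr2:125416621-125417446 was the closest of all 514 to a peak of the libraries that lacked it, with 2 bp between them.

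Col3a1 encodes the alpha chain of type III collagen, a fibrillar collagen of the muscle interstitium. All of its 7 members lay inside the gene and formed the longest run of members in the stretch, spanning 22540 bp with no gap over 10000 bp. The first and widest, chr1:45317911-45318955, had 166 tags in young vehicle and 70 in old TSA. The next 5 had 60 and 37, 57 and 48, 85 and 52, 58 and 49, and 40 and 31 tags. The last, chr1:45340172-45340451, was the one with more tags in old TSA, 47 against 33. None of the 7 overlapped an H3K9/14ac peak of any library.

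**Figure D2:**
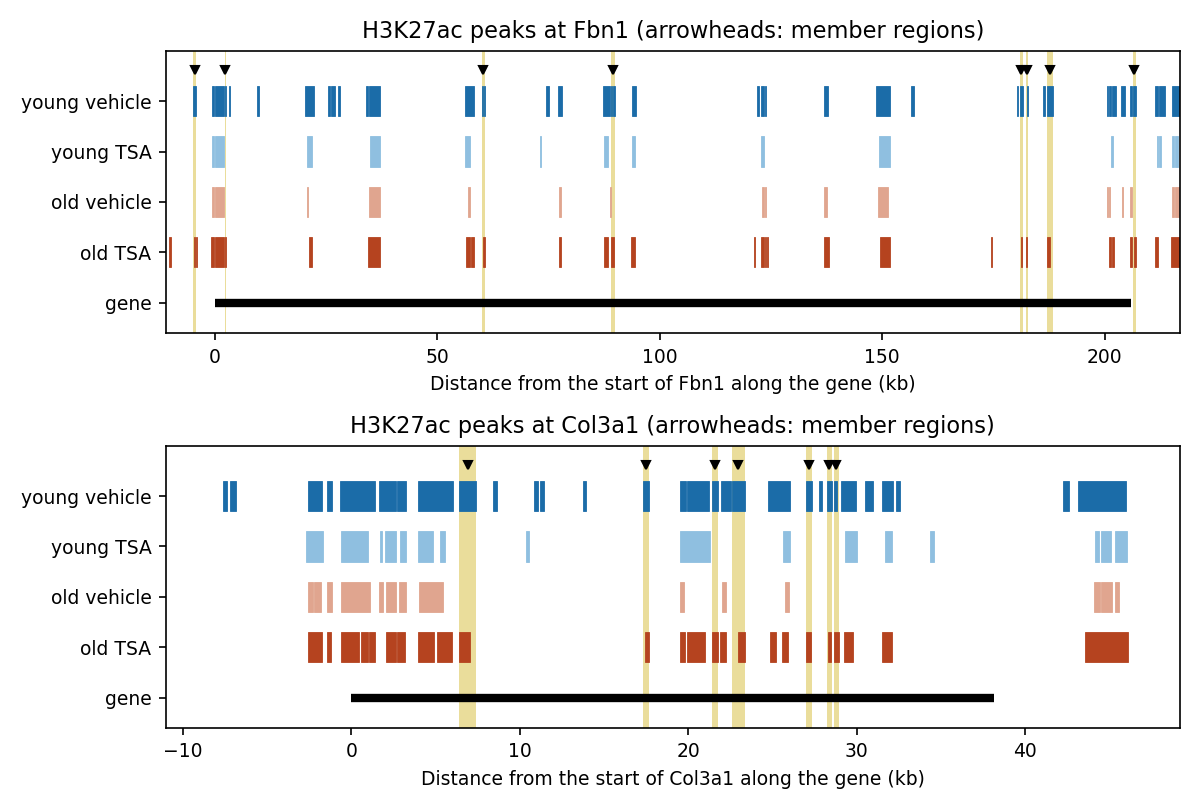
H3K27ac peaks of the 4 libraries (rows) along Fbn1 and Col3a1, with distance from the start of the gene in kb on the horizontal axis; yellow bands and arrowheads mark the 8 and 7 members and the black bar the gene. The bands hold bars in the young vehicle and old TSA rows only, apart from bars of other rows that stop at a band's edge, and lie between or beside regions that all 4 rows share.

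Other fibrillar and filamentous collagens had fewer but wider members. Col5a2, the neighbour of Col3a1, encodes a chain of type V collagen and held a member of 1633 bp at chr1:45429726-45431359, with 202 tags in young vehicle and 136 in old TSA, and another with 117 and 57. A further region, 37915 bp outside Col5a2, had 157 and 85 tags. The partner chain gene Col5a1 had 1 member with 143 and 82 tags, which was 75715 bp from the nearest young TSA or old vehicle peak. Col6a3, a type VI collagen gene, had 1 member with 165 tags in young vehicle and 48 in old TSA, a relative log2 ratio of -1.68 (counting error 0.24). At each of these collagen regions inside a gene the young vehicle library had the higher count, each count being over the library's own peaks.

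The remaining matrix genes leaned less to one library. Sulf1 encodes an extracellular sulfatase that trims heparan sulfate, and its 3 members had 43 and 49, 89 and 63, and 153 and 169 tags in young vehicle and old TSA. The laminin chain gene Lamc1 had 59 and 57, and Fap, which encodes the fibroblast activation protease, had 60 and 34. The member over the start of Hmcn1 was higher in old TSA, with 89 tags against 58.

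Of 6 genes of FAP identity in the stretch, Prrx1, Cd34 and Dpt had members, and 7 of the 53 regions around the 6 genes were members (13.2%, against 5.90% of all regions). Prrx1, a homeobox gene of limb mesenchyme, had 3 within the gene, with 136 and 123, 54 and 54, and 77 and 61 tags in young vehicle and old TSA. Cd34, the gene of a surface glycoprotein of progenitors, had 2, with 153 and 89 tags and 54 and 36 tags, both higher in young vehicle. Dpt, which encodes the matrix protein dermatopontin, had 2, with 56 and 111 and 39 and 60 tags, both higher in old TSA. The ends of all 3 genes carried H3K27ac peaks in every library, so the members here were additional regions at genes already marked in each list.

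Receptors and ligands of Notch signalling, in which a membrane-bound ligand on one cell triggers cleavage of the receptor on its neighbour, were also among the loci. Notch2 had 4 members on chromosome 3, all within the gene and covering 98026940 to 98086697. Their counts in young vehicle and old TSA were 78 and 66, 128 and 160, 65 and 78, and 81 and 131, so that 3 of the 4 were higher in old TSA. The receptor gene Notch1 had 31 and 76 tags at a gene end and 74 and 109 inside the gene. The ligand gene Dll4 had one member of 1601 bp at a gene end, with 186 and 148 tags, and a young TSA or old vehicle peak lay 138 bp from it. Of 17 genes of Wnt, Notch and Hedgehog signalling in the stretch 5 had a member (29.4%, against 8.34% of all genes), and 9 of their 78 regions were members (11.5%, against 5.90% of all regions). The other 2 were Fzd7, a Wnt receptor gene, with 56 and 78 tags, and Ccn5, which encodes a secreted matricellular protein. The Ccn5 member lay 2137 bp outside the gene and had 34 tags in young vehicle and 118 in old TSA, a relative log2 ratio of 1.90 (counting error 0.28).

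Of 14 genes of the TGF-beta and BMP pathways 2 had a member (14.3%, against 8.34% of all genes), and 3 of their 51 regions were members (5.88%, against 5.90% of all regions). Tgfb2, a ligand gene, had 58 and 52 tags at one member and 107 and 46 at another. Eng, which encodes the co-receptor endoglin, had 1 member with 67 tags in young vehicle and 94 in old TSA.

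Genes of actin regulation and cell adhesion had 10 of 27 genes with a member, and 20 of 338 regions (5.92%), next to 5.90% over all regions. Nav1, which encodes a microtubule-guiding protein, had 4 members with 38 and 79, 50 and 68, 102 and 128, and 45 and 73 tags, each higher in old TSA. Fmnl2, a formin gene, had 4 with 41 and 47, 67 and 46, 114 and 106, and 145 and 47 tags. Rapgef2, which encodes an exchange factor for Rap, had a member of 1811 bp with 219 tags in young vehicle and 68 in old TSA, a relative log2 ratio of -1.58 (counting error 0.20). Wipf1, whose product binds the actin regulator WASP, had 73 and 97, 64 and 102, and 58 and 45 tags at its 3.

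The other genes with most members belonged to several functions. Itpkb encodes an inositol trisphosphate kinase and had 5 members, of which chr1:180383941-180385648 carried the highest summed count of all, 220 tags in young vehicle and 244 in old TSA. The other 4 had 52 and 130, 122 and 113, 66 and 63, and 37 and 28 tags. Mbnl1, the gene of an RNA-splicing regulator, had 5 in the gene, the widest with 199 and 86 tags. Plcb4, a phospholipase C gene, had 4, with 45 and 44, 71 and 55, 56 and 56, and 141 and 101 tags. Trak2, whose product links mitochondria to motor proteins, had 3 of its 5 regions as members, with 196 and 180, 78 and 52, and 165 and 62 tags, all at least 10702 bp from a young TSA or old vehicle peak. Zfp217, a zinc-finger gene, had 119 and 109, 84 and 73, and 94 and 35.

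The counts per gene depended on how lists were made equal or gaps joined. With equal list lengths by width, Notch2 kept a count of 4 while Fbn1 had 3, Col3a1 had 1 and Fmnl2 had 0. With every member within 1000 bp of a young TSA or old vehicle peak left out, Fbn1 had 5, Dnm3 4, Trak2 and Notch2 3 each, Col3a1 and Itpkb 1 each and Nav1 0.

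Some of the strongest members lay at genes with few or no others. Hdac4 encodes a class IIa deacetylase, and the widest member of all lay inside it, at chr1:92099393-92101252, with 86 tags in young vehicle and 240 in old TSA. Its relative log2 ratio was 1.58 (counting error 0.18), and the nearest young TSA or old vehicle peak was 77775 bp away. Ncoa3, a coactivator gene, was the other of 5 acetylation genes with a member, with 31 and 46 tags. Of these 5 genes 40% had a member, against 8.34% of all genes. Of the 36 regions around them, 2 were members (5.56%, against 5.90% of all regions). Galk2, a galactokinase gene, had 2 members, one with 107 and 109 tags and one with 180 and 207 tags that was 56120 bp from the nearest peak of the lists lacking it. St6galnac4, a sialyltransferase gene, had 118 and 217 tags at a gene end, and Lix1l had 194 and 168. Outside genes, a region 54415 bp from Cd44, which encodes the hyaluronan receptor, had 193 and 142 tags, one 36557 bp from Wdr75 had 226 and 119, and one 53956 bp from Ola1, in a run with a further member, had 140 and 199.

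Markers of other muscle cell types held few members. None of 6 muscle stem cell genes, 15 muscle fibre genes, 5 pericyte and smooth muscle genes or the 1 tenocyte gene of the stretch had one. Few regions lay around these genes, 14, 16, 7 and 2 in that order. Among 21 leukocyte genes only Cd2, a T-cell adhesion gene, had one, with 53 tags in young vehicle and 90 in old TSA. Among 5 endothelial genes only Eng had one. Members were 1 of 34 regions at the leukocyte genes (2.94%) and 1 of 36 at the endothelial genes (2.78%), against 5.90% of all regions. As a check of the cells, 5 of 6 FAP genes had an H3K27ac peak at a gene end in each of the 4 libraries, against 3 of 21 leukocyte genes in each. For muscle fibre genes the count was 2, 1, 0 and 1 of 15, and for endothelial genes 5, 5, 4 and 5 of 5, in young vehicle, young TSA, old vehicle and old TSA. In the same order it was 3, 3, 2 and 2 of 6 for muscle stem cell genes. It was 2, 2, 1 and 2 of 5 for pericyte and smooth muscle genes and 1, 1, 2 and 1 of 3 for Schwann cell genes. Gene ends of several other cell types were thus marked as well. The part that other cell types have in the members was not tested. For genes of adipocyte formation, 2 of 10 had a member (20%, against 8.34% of all genes). They were Gpd2 with 70 and 90 tags at a gene end and Fabp4 with 29 and 34 tags 7550 bp outside the gene. Of the 46 regions around the 10 genes, 2 were members (4.35%, against 5.90% of all regions). Of 29 housekeeping genes, whose ends were marked in every library, B2m, the gene of the light chain of class I antigen-presenting molecules, alone had a member in its window, the one over the neighbouring Trim69 start. That was 1 of the 69 regions around the housekeeping genes (1.45%, against 5.90%). Of 23 neural genes, taken as a background of genes not typical of mesenchyme, 2 had members, with 55 and 89 and 100 and 50 tags at Nmnat2 and 50 and 58 at Cacnb4, and 3 of their 33 regions were members (9.09%, against 5.90%).

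By place, 53 members (10.3%, exact 95% binomial interval 7.82 to 13.3%) lay within 1000 bp of an annotated gene end, 287 (55.8%) inside a gene and 174 (33.9%) outside genes. Gene ends made up 27.1% of all regions. The members resembled the regions found in fewer lists: gene ends made up 6.44% of regions in young vehicle alone, 12.5% in old TSA alone and 12.7% in both young libraries alone. They made up 28.0% of regions lacking a peak in old vehicle alone and 46.6% of regions found in all 4 lists. By width, 20% of members under 300 bp (7 of 35) and 6.78% of those of 1000 bp and over (4 of 59) lay at a gene end. Of all regions of those widths 12.9% and 39.9% did, and of those found in all 4 lists 57.1% and 46.9%, so that the narrowest members were not below all regions of their width. Members of 300 to 600 and of 600 to 1000 bp had 10.8% and 9.18%, against 16.8% and 24.5% of all regions and 44.2% and 45.6% of those found in all 4 lists. The members came from the longer lists, and the part of list length in this share was not tested.

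**Figure D3:**
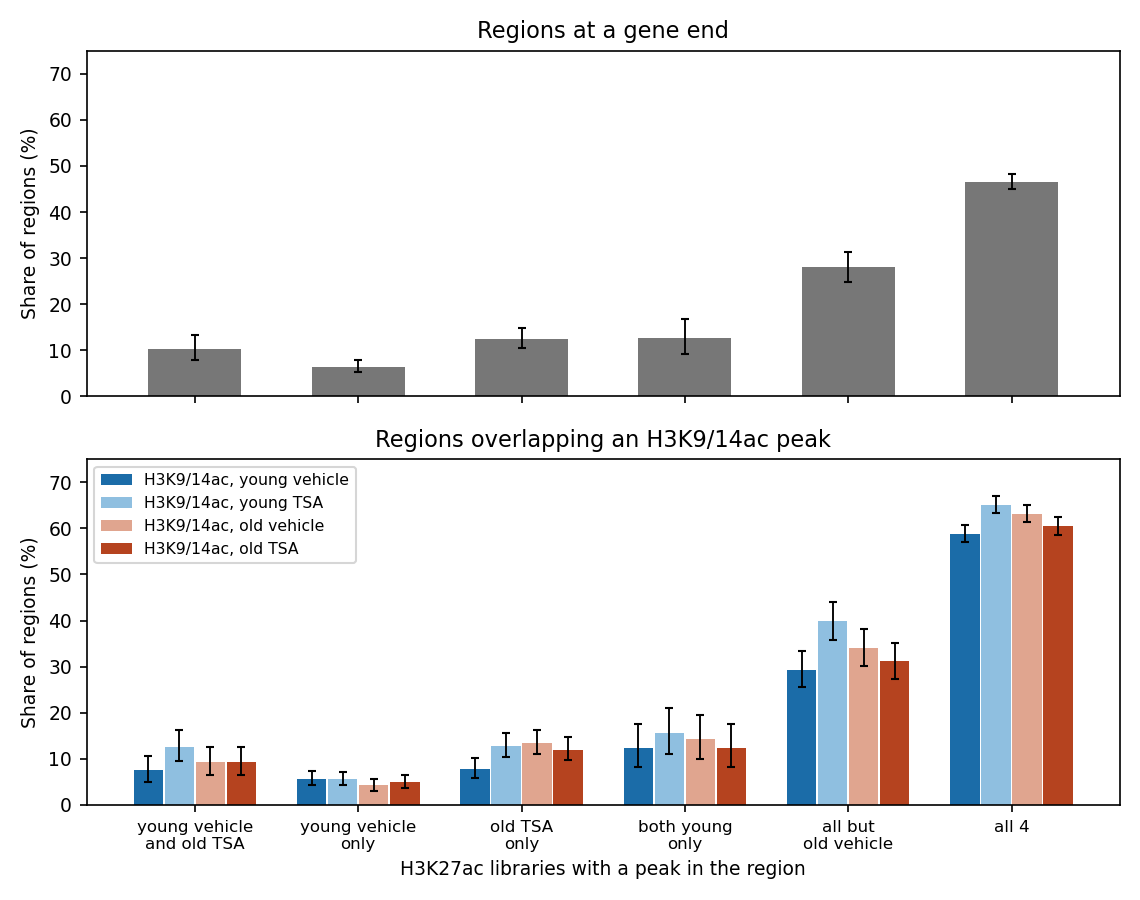
Share of H3K27ac regions at a gene end (upper bars) and overlapping an H3K9/14ac peak of each library (lower bars), in percent, by the H3K27ac libraries that had a peak in the region; error bars are exact 95% binomial intervals for counting error. The members, at the left, reach 10.3% at gene ends, far below the 46.6% of regions in all 4 lists.

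At 14 genes, a member was the only H3K27ac region within 1000 bp of either gene end. Crispld1, which encodes a secreted cysteine-rich protein, had the largest relative ratio of all members, with 37 tags in young vehicle and 150 in old TSA (2.12, counting error 0.26), and the nearest young TSA or old vehicle peak was 124063 bp away. Serpine2, the gene of the protease inhibitor nexin-1, had 42 and 73 tags. It was the 1 gene with a member among 7 of senescence and its secreted products (14.3%, against 8.34% of all genes). Of the 14 regions around those 7 genes, 1 was a member (7.14%, against 5.90% of all regions). Qsox2, a sulfhydryl oxidase gene, had 65 and 86, Fam110a had 55 and 91, Fam78b 43 and 89, and Tsen15, a tRNA-splicing gene, 74 and 65. Young vehicle was higher at Trim69 (92 and 71), Dab2ip (90 and 60, at the first of its 4 promoter windows), the somatostatin receptor gene Sstr4 (82 and 55) and the fatty acid transporter gene Slc27a3 (81 and 48). Cyp7b1, an oxysterol hydroxylase gene, had 47 and 71, Arrdc1 63 and 46, and Pabpc4l 51 and 49, and the Hmcn1 counts are given above. Of the 11 of these genes within the stretch covered for the other mark, 8 had H3K9/14ac peaks in all 4 libraries at the member, and Trim69 and Sstr4 had none in any.

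H3K9/14ac could be read at the 388 members on chromosome 1 and on chromosome 2 up to position 167064301. A peak of the young vehicle library overlapped 29 of them (7.47%) and one of the young TSA library 49 (12.6%). Each of the old libraries had a peak at 36 (9.28%). Over all regions the shares were 31.2%, 36.3%, 34.4% and 32.7%. With the lists as long and as labelled as deposited, the members' H3K27ac pattern was thus not repeated in the other mark. Young TSA, which by the rule lacked H3K27ac peaks here, had the highest H3K9/14ac share, and the intervals of the 4 shares overlapped. The young TSA and old vehicle lists of this mark were the longer ones, with 3336 and 3235 peaks against 2711 and 2474. With all 4 lists reduced to equal length the shares were 6.44%, 8.51%, 5.93% and 9.28%, and old TSA had the highest. Each of these statements takes the H3K9/14ac libraries as labelled. The labels of this mark at 1 age are in doubt from earlier results on the whole series, which are not shown here. With the labels of the young libraries exchanged, young vehicle would have the 12.6% and young TSA the 7.47%. In those full lists the old libraries have equal shares either way. With equal list lengths and the same exchange, young vehicle would have 8.51% and young TSA 6.44%, beside 5.93% in old vehicle and 9.28% in old TSA. The libraries with the members' H3K27ac peaks would then have the highest shares, with overlapping intervals. Whether the pattern is repeated thus depends on labels and list lengths.

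In all, 63 of the 388 members (16.2%, interval 12.7 to 20.3%) overlapped an H3K9/14ac peak of at least 1 library, against 42.3% of all regions, and 20 did in all 4 (5.15% against 26.9%). H3K9/14ac in young vehicle and old TSA alone occurred at 1 member, and at 23 of all 6410 regions. With the labels of the young libraries exchanged, these counts would be 6 and 54. Place went with the overlap: 29 of 41 members at gene ends had one (70.7%, against 91.1% of all regions at gene ends), 27 of 222 inside genes (12.2% against 27.7%) and 7 of 125 outside genes (5.6% against 18.9%). Of the 20 members with the mark in every library, 16 were at gene ends. In the order young vehicle, young TSA, old vehicle, old TSA, the H3K9/14ac tags were 119, 195, 205 and 195 at Hmcn1, 128, 129, 223 and 134 at Crispld1, and 94, 147, 165 and 185 at Serpine2. At Gpd2, a mitochondrial glycerol phosphate dehydrogenase gene, they were 302, 505, 467 and 363. Inside Baz2b, a bromodomain gene, they were 95, 90, 91 and 86, while the member inside Cavin2, a caveolae gene, had 55 in young vehicle and 29 in old TSA with no peak in the other libraries. At 3 of the 5 Itpkb members, young TSA alone had an H3K9/14ac peak, with 37, 92 and 32 tags. If the young labels were exchanged, the young vehicle and young TSA values given here from Hmcn1 to Itpkb would change places.

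Many members lay beside acetylated regions of the libraries that lacked them. The median distance to the nearest young TSA or old vehicle H3K27ac peak was 3083.5 bp, with quartiles of 390 and 14358 bp. Such a peak lay within 1000 bp of 189 members (36.8%), within 5000 bp of 294 (57.2%, interval 52.8 to 61.5%) and within 10000 bp of 353 (68.7%). Regions in young vehicle alone and in old TSA alone were as close, with 58.7% and 56.4% within 5000 bp. At the near end were the Fbn1 member at 2 bp, a member at an end of Paxx, a DNA repair gene, at 14 bp with 35 and 83 tags, and one inside Frmd4a at 15 bp with 91 and 100 tags. At the far end were the member at the end of Pabpc4l at 3035952 bp with 51 and 49 tags, one 40326 bp outside the calcium channel gene Cacna1b at 327392 bp with 51 and 65, and one 95180 bp outside Gdap1 at 310101 bp with 32 and 37.

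**Figure D4:**
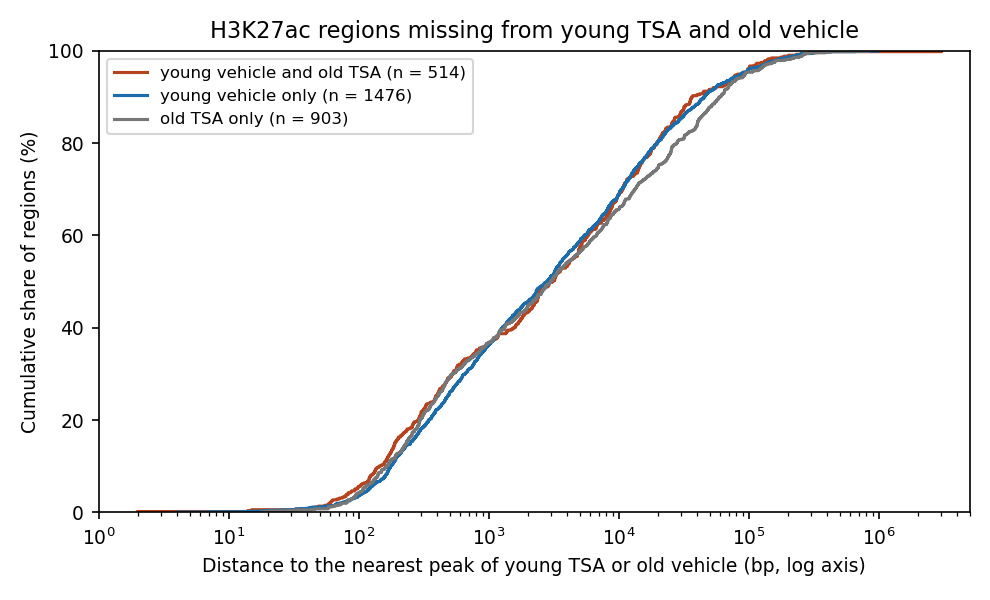
Cumulative share of regions (percent) by distance in bp to the nearest H3K27ac peak of young TSA or old vehicle (log axis), for members and for regions in young vehicle alone and in old TSA alone. The 3 curves run close together, and 57.2% of members lie within 5000 bp.

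Just outside the rule were regions that a short overlap with a further list kept from membership. The smallest overlap was 51 bp, of an old vehicle peak with 32 tags, at a region 349284 bp from Pdgfc that had 75 tags in young vehicle and 62 in old TSA. A region in Ampd2 was overlapped for 138 bp by an old vehicle peak with 57 tags and had 45 and 138. Members 14 and 15 bp from such a peak differed from these by the position of a peak border.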

How the data were processed

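Histone acetylation was measured by ChIP-seq in 12 samples of sorted FAPs. The 8 immunoprecipitated samples were used, and the 4 inputs were not used here. Build GRCm38 and the tools MACS2, HOMER and Bowtie 0.12.7 appear in the submitters' processing notes without an assigned step. The authors deposited 1 peak list per library with whole-number tag counts per peak, from a HOMER run of each library against itself, per the file headers; the counts are not normalized. Every list as used here breaks off in 1 incomplete line, so regions were limited to the stretch all 4 lists of a mark cover. Library totals are not given in the sources used here; tags in H3K27ac peaks of the stretch ran from 952786 (old vehicle) to 1659160 (young vehicle).

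Peaks were merged in Python 3.11.15 (pandas 2.3.3) where they overlapped by 1 bp or touched. Coordinates are printed as the files give them; a start may be 1 bp off, since the files do not say whether counting begins at 0. Gene positions came from a RefSeq table of GRCm38.p6, and promoter sequences matched 3189 of 3789 genes. Shares carry exact (Clopper-Pearson) 95% intervals (scipy 1.17.1), which cover counting error only. The merging was tested on simulated peaks.

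Named were the 12 genes with most members, the 12 members with most tags and 6 widest, genes whose ends only a member marked or with H3K9/14ac in young vehicle and old TSA (up to 12 each), listed genes with a member, and the 3 nearest and 3 farthest members. Others (Kcnab1, Mir214, Aven, Creb3l1, Zcchc2 and genes of runs) were singled out after their values were seen. The members and the 17 gene lists, with 214 genes in the stretch, were chosen with earlier results of these data known. Alternatives were list lengths, joined gaps, overlap, window sizes and distances. Results for a few named items are not reported here.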

Additional observations from a re-analysis of the deposited data

How the results depend on the processing

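The number of members depended on list length and on how close peaks were treated. From 514 it became 325 with gaps of up to 1000 bp merged, 192 with equal list lengths by width, 164 with equal lengths by tags and 38 with only the upper 50% of young vehicle and old TSA peaks by width. It was 325 without members that had a young TSA or old vehicle peak within 1000 bp and 3 where no peak number was skipped, both chosen after seeing the data. Of the 192, 186 overlapped a member, as did 160 of the 164. With gaps of up to 500 bp merged it was 351, and 499 with a 50% overlap. Genes with a member went from 316 to 139 with equal lengths by width. The share at gene ends, 10.3%, was 7.12% with gaps of 500 bp merged, 14.8% with 2500 bp windows and 4.28% for promoter windows (added after seeing the data). H3K9/14ac overlap in young vehicle was 12.1% and in old vehicle 14.9% when a peak within 500 bp counted, and 8.51% in young TSA and 5.93% in old vehicle with equal H3K9/14ac lists; in old TSA no alternative moved it outside its interval. Median tags per kb fell to 128.7 in young vehicle and 137.1 in old TSA with equal lengths by width. The share near a young TSA or old vehicle peak was 34.8% with 500 bp gaps merged, 43.4% at 2000 bp and 68.7% at 10000 bp. Merging gaps joins any such peak within 500 bp to the region, which then is no member. The 34.8% is therefore lower by construction. No paired analysis was possible because each group has 1 library. The lists' lowest peaks, of 20 to 23 tags, set the limit of what could be seen.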

Other observations

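Of the 514 members, 98 stood in 45 runs of at least 2 with no gap over 10000 bp. Runs were not counted for other patterns or over all regions, so this count does not set the members apart. Beside Col3a1, runs of 3 lay at Trak2 (11480 bp), at Fam20b and Ralgps2 (9950 bp) and in Fbn1 (7555 bp). Runs of 2 included those at Zeb2 (9559 bp), a repressor gene of mesenchymal cells, and at Pmepa1 (9478 bp), whose product restrains TGF-beta signalling. Another lay at Nfe2l2 (7852 bp), the gene of the antioxidant regulator Nrf2. These examples were picked from the runs of 2 after the values were seen.

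The 5 regions with the opposite pattern, a peak in young TSA and old vehicle alone, had 67 and 57 tags in these libraries at an end of Soat1, 87 and 29 inside Rps6kc1, 94 and 39 inside Cdk5rap1, 67 and 29 inside Mecom, and 30 and 44 at 5697 bp from Cd44. The Soat1 region overlapped H3K9/14ac peaks in all 4 libraries.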
